A study of Homo sapiens with 18 samples.

Results

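The genes described are 8 genes of the recurrent chromosome translocations of multiple myeloma and of the MAF programme: MAF, CCND1, CCND2, CCND3, ITGB7, NUAK1, FGFR3 and NSD2. They were taken by symbol from a table of 43735 genes, with earlier results of these data known. Of the 8, 7 passed the filter on low counts that kept 14281 genes for testing. FGFR3 was the exception. RNA was sequenced from 2 established human myeloma lines of the same origin, the glucocorticoid-sensitive MM1S and the glucocorticoid-resistant MM1R. In each line, cells were left untreated, were given 5 µM RSL3 for 3 h, or were pre-treated with 2 µM ferrostatin-1 (Fer-1) for 2 h and then given 5 µM RSL3 for 3 h. RSL3 inhibits the lipid peroxide reductase GPX4 and so triggers ferroptosis, an iron-dependent cell death, and Fer-1 traps the lipid radicals involved. No group received Fer-1 alone. Each of the 6 groups holds 3 libraries, 1 per passage. Replicates 1, 2 and 3 are passages 4, 6 and 7 in MM1R and 16, 22 and 23 in MM1S. Each passage number stands under all 3 treatments of its line. The labels do not say whether a single culture was split over them. In the main fit the p-values rest on the spread between passages within the groups, with 1 estimate shared by both lines. With the passage as a block, they rest on the spread left after differences between passages are removed. Neither covers other myeloma lines. In bulk RNA, fewer transcripts per cell and a smaller share of cells with a transcript cannot be told apart.

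In myeloma, the immunoglobulin heavy chain locus is recurrently joined to a partner gene that its enhancers then drive, among them MAF, CCND1, CCND3 and the neighbouring pair FGFR3 and NSD2. MAF is a large leucine zipper transcription factor, and myelomas with high MAF are known for high CCND2, ITGB7 and NUAK1. The MM1 lines are known as MAF-translocated. D-type cyclins bind CDK4 and CDK6 and start the phosphorylation of RB1, which frees E2F factors for entry into S phase. ITGB7 is the beta chain of an adhesion and homing integrin, NUAK1 a kinase activated by LKB1, FGFR3 a receptor tyrosine kinase, and NSD2 a methyltransferase of histone H3 lysine 36.

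Total counts lay between 17635438 and 19368343 per library. MM1R Fer-1 + RSL3 replicate 2 went against its label in part. The check used 8 genes with an MM1S median at least 8-fold above that of the 8 other MM1R libraries, without overlap. Over these genes, MM1R Fer-1 + RSL3 replicate 2 stood at a median of 48.5% of the MM1S level. The other MM1R libraries stood between -0.496% and 1.63%. The percents place a library between the 2 lines and can fall below 0. Since the genes were picked from these libraries, values near 0 there follow from the choice. Over 25 genes picked likewise as high in MM1R cells, the doubtful library stood at 43.3% of the MM1R level. NR3C1, the glucocorticoid receptor, stood at 50.2 CPM in it, against 13.8 to 22.3 CPM in the other MM1R libraries and 89.9 to 392 CPM in MM1S cells. It is called the doubted library here, and called values of the 8 genes in MM1R Fer-1 + RSL3 are given with and without it. MM1S RSL3 replicate 1, from passage 16, had the lowest TMM factor, at 0.864. All 10 plasma cell markers had a median of at least 10 CPM. Of 5 markers of earlier B cells, 3 never passed 3 counts in a library, and the sum of these 5 lay between 0.836 and 9.80 CPM. The summed T cell, myeloid and fibroblast markers reached at most 11.8, 33.0 and 21.8 CPM. The plasma cell markers summed to 17018 to 18703, 14161 to 17927 and 13618 to 15394 CPM in untreated, RSL3 and Fer-1 + RSL3 libraries of MM1R, and to 11137 to 12399, 11072 to 12466 and 9359 to 11318 CPM in MM1S. JCHAIN, at 4808 to 12657 CPM, was the largest single term. With RSL3 averaged over both lines, 1 of the 10 plasma cell markers was called higher and 2 lower, where 15.5% of all genes were called. CD38 rose by 0.54 on the log2 scale (FDR = 0.0408), a call that held in 9 of 18 fits that left out 1 library. SDC1 fell by -0.45 (FDR = 0.0113), which held in all 18. In MM1R cells after Fer-1 + RSL3, CD38 and SDC1 changed by 1.00 (FDR = 0.0184) and -0.66 (FDR = 0.0132) against untreated. Without the doubted library the CD38 call was lost and the SDC1 call held. BCL6, of earlier B cells, rose with RSL3 by 1.32 (FDR = 0.0315) at 0.731 to 9.65 CPM, a call that held in 10 of 18 such fits. The fibroblast marker COL1A1 rose by 1.94 (FDR = 0.0398), called in 8 of 18 such fits, or by 0.53 (FDR = 0.312) without MM1S RSL3 replicate 1. The part of these shifts in the results was not tested.

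The promoters of the 3 members that passed the test in the average over both lines, MAF, NUAK1 and CCND3, and of ITGB7, the member with the highest level, are shown to let their makeup be read beside the values. Each is the 250 bases before an annotated start, written 5′ to 3′ on the gene's strand, from RefSeq on GRCh38.p14. They lie on the minus strand at chr16:79600738-79600987 (MAF), chr12:106138955-106139204 (NUAK1), chr6:42048689-42048938 (CCND3) and chr12:53207252-53207501 (ITGB7). Capitals mark letters that match a searched motif.
MAF: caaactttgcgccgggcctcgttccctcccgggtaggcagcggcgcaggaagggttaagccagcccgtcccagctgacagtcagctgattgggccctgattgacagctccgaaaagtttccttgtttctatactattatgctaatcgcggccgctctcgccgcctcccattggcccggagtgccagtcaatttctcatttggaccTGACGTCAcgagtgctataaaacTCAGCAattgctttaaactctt
NUAK1: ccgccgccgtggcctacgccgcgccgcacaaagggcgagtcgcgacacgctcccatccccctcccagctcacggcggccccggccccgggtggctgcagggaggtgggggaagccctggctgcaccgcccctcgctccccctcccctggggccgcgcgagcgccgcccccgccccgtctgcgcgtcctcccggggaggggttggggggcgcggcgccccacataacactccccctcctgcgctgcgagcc
CCND3: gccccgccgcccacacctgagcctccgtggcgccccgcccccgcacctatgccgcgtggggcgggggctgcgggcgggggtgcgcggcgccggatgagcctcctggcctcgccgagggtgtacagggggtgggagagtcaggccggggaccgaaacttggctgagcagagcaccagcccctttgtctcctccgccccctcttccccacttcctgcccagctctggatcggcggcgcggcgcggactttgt
ITGB7: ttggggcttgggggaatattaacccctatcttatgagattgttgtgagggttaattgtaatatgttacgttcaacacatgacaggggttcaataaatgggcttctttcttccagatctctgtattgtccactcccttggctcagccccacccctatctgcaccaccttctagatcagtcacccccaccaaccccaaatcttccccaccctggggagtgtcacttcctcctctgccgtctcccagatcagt
The window of MAF holds TGACGTCA, the letters of a full cAMP response element, 45 to 38 bases before the start. Closer to the start, 22 to 17 bases before it, stands TCAGCA, the opposite strand of TGCTGA, which is part of a MAF recognition element. Of 34788 RefSeq promoters of the same length, 1.64% hold TGACGTCA and 13.98% hold TGCTGA on either strand. A search on both strands for TGAGTCA, an AP-1 site (4.21% of promoters), TGACNNNGC, the core of the antioxidant response element (10.9%), and TTTCGCGC, an E2F site (0.428%), matched no window of the 6 members in the table, MAF, CCND3, ITGB7, NUAK1, FGFR3 and NSD2. NUAK1 and CCND3 had 79.6% and 74.4% G and C, above the upper quartile of 68% over all promoters, while MAF had 54.4% and ITGB7 49.6%, below the median of 58%. FGFR3 and NSD2 had 86.8% and 86.0%. A match is a description of letters, and no binding was measured. Windows before any other start of a gene are not shown, and which start these cells used was not measured.

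Levels are given as CPM, read counts scaled to a common library total after TMM normalization, and between genes in CPM per kb of the longest transcript. Among the members, ITGB7 stood far above the rest in every library, with a median of 2026 CPM per kb. It ranked 6 among all genes by its median CPM. CCND2 and MAF followed at medians of 120 and 118 CPM per kb, and their ranges over the 18 libraries, 76.4 to 244 and 78.1 to 218 CPM per kb, overlapped. NSD2, CCND3 and NUAK1 had medians of 28.5, 23.8 and 13.1 CPM per kb. CCND1 was lower, at 2.61 CPM per kb, and FGFR3 was at 0.0803 CPM per kb, from 2 to 11 counts in a library. With the summed length of all exons in place of the longest transcript, 24 of the 48 group means per kb moved by more than their SD, and the order turned among the middle genes. The medians were then 12.7 CPM per kb for NUAK1, 11.99 for NSD2 and 9.87 for CCND3, and MAF stood at 108 and CCND2 at 103 CPM per kb. ITGB7, CCND1 and FGFR3 kept their places, at 1277, 2.32 and 0.0713 CPM per kb.

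**Figure D1:**
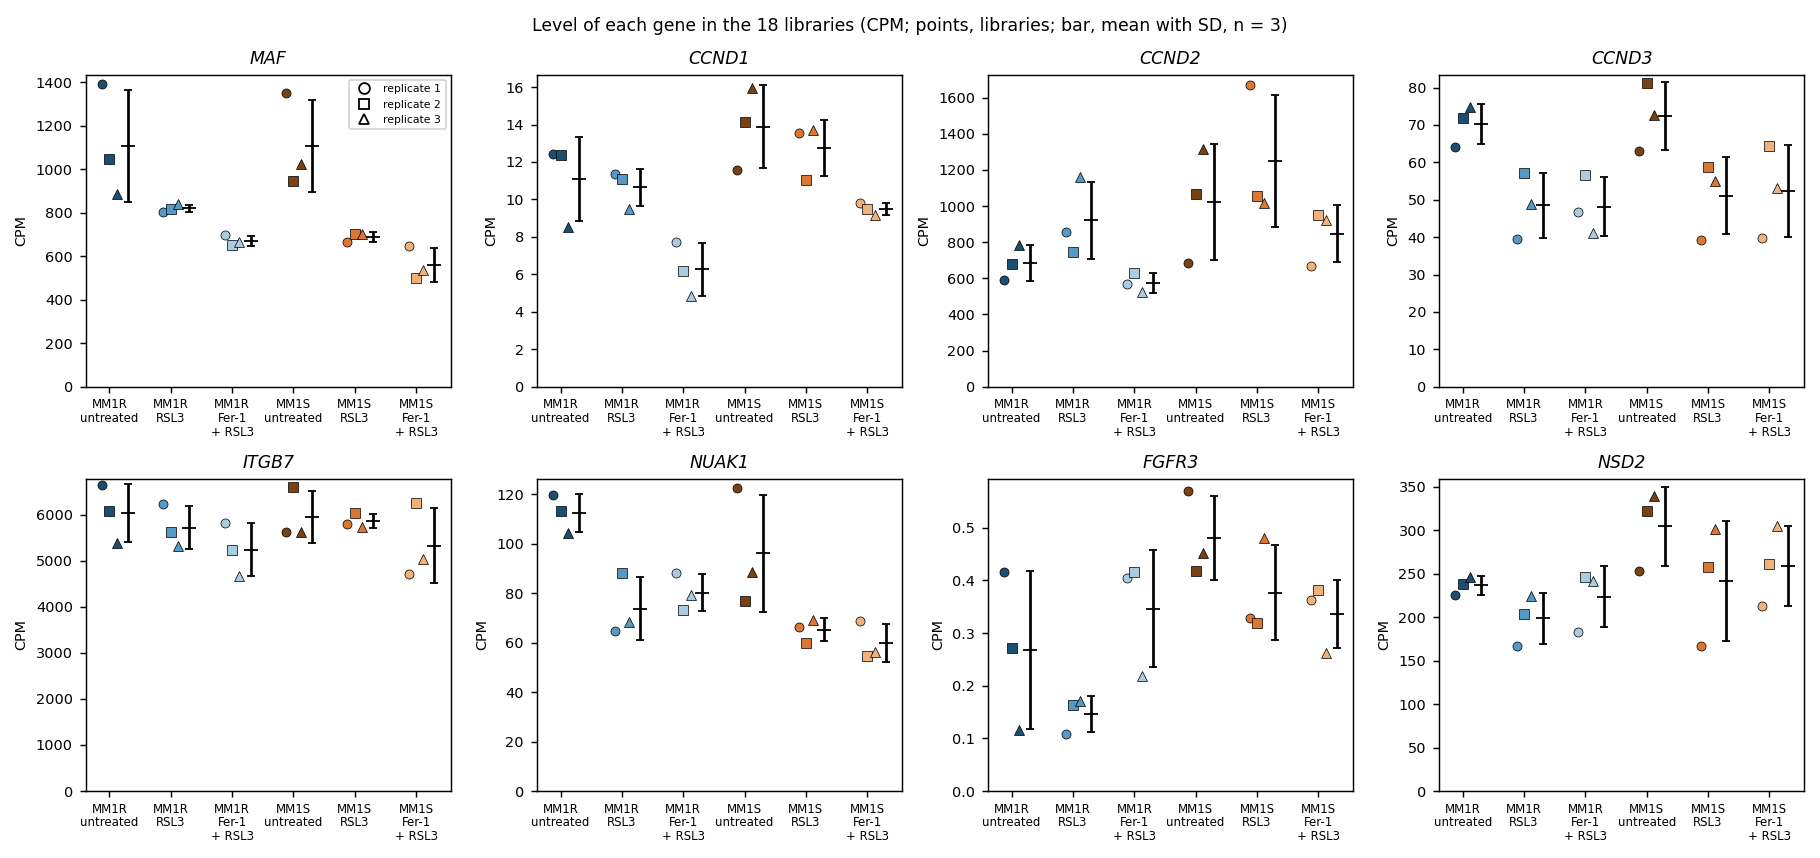
Level of each of the 8 genes in CPM (vertical axes, from 0, a scale of its own for each gene) in the 6 groups (horizontal axes). Points are libraries, with the marker showing the replicate, and the bar beside them is the mean with its SD (n = 3). MAF and NUAK1 are lower in the RSL3 and the Fer-1 + RSL3 libraries than in the untreated libraries of the same line, and ITGB7 stays between 4679 and 6649 CPM.

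MAF fell with RSL3. In MM1R cells, MAF (hg19, chromosome 16, 79619740 to 79634634) stood at 1391, 1046 and 886 CPM without treatment and at 803, 820 and 839 CPM with RSL3 (passages 4, 6 and 7). In MM1S cells, the untreated libraries held 1350, 948 and 1024 CPM and the RSL3 libraries 664, 703 and 702 CPM (passages 16, 22 and 23). The groups did not overlap in either line, and the untreated library of the lowest passage was the highest in both. Of all tested genes, 12.3% in MM1R and 12.3% in MM1S cells were lower without overlap. Averaged over both lines, the log2 fold change was -0.56 (SE 0.11, FDR = 0.00277, the quasi-likelihood test of edgeR, adjusted by the Benjamini-Hochberg method over all tested genes, which gives every FDR unless another tool is named), so that the level fell by 32.1%. The fall passed the test in MM1S cells, at -0.68 (SE 0.15, FDR = 0.0224), but without MM1S RSL3 replicate 1, MM1S untreated replicate 1 or MM1S untreated replicate 3 the FDR was 0.0869, 0.132 and 0.052. In MM1R cells it was -0.43 (SE 0.15, FDR = 0.136), and with the passage as a block -0.41 (FDR = 0.0491). The difference between the lines in this change was 0.25 (SE 0.22, FDR = 1).

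With Fer-1 before RSL3, MAF was lower still rather than back at the untreated level. The MM1R libraries held 698, 653 and 666 CPM, and the MM1S libraries 646, 498 and 536 CPM. All 6 lay below every RSL3 library of their line, and MAF was lower in 6 of 6 passages. Of all tested genes, 6.44% in MM1R and 4.17% in MM1S cells were lower than with RSL3 without overlap, and 6.56% were lower in all 6 passages. Against RSL3 alone the change of MAF did not pass the test, at -0.29 averaged over both lines (SE 0.11, FDR = 0.276). Against untreated cells MAF passed it in both lines, with -0.72 in MM1R (SE 0.15, FDR = 0.00858) and -0.98 in MM1S cells (SE 0.15, FDR = 0.0017). Without the MM1R library that went against its label, the MM1R value was -0.70 (FDR = 0.0366). These comparisons share the RSL3 or the untreated libraries with the first and are not independent of it. Between the lines, MAF did not differ without treatment, at 1108 ± 258 CPM in MM1R and 1107 ± 214 CPM in MM1S cells (SD, n = 3, log2 difference 0.0006, SE 0.15, FDR = 0.999). With RSL3 the 3 MM1R libraries lay above the 3 MM1S libraries, by 0.25 on the log2 scale (SE 0.15, FDR = 0.35), as 13.4% of tested genes did.

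NUAK1 (chromosome 12, 106457123 to 106532732) fell as well. In MM1R cells, NUAK1 stood at 120, 113 and 104 CPM untreated and at 64.6, 88.1 and 68.3 CPM with RSL3. In MM1S cells, the values were 123, 77.0 and 88.5 CPM untreated and 66.2, 60.04 and 69.1 CPM with RSL3. Neither line showed overlap, with 12.3% of tested genes in each line lower without overlap. NUAK1 was lower in 6 of 6 passages, as 14.8% of all tested genes were. The averaged log2 fold change was -0.58 (SE 0.11, FDR = 0.0025), and the level fell by 33.3%. In MM1R cells alone it was -0.61 (SE 0.16, FDR = 0.0445), with an FDR of up to 0.201 when 1 library was left out. That call held in 6 of 18 such fits, those without MM1R RSL3 replicate 2, MM1S untreated replicate 1 or 2, MM1S RSL3 replicate 1 or 3, or MM1S Fer-1 + RSL3 replicate 1. The value in MM1S cells was -0.56 (SE 0.16, FDR = 0.0581), and -0.53 with the passage as a block (FDR = 0.0185). Without MM1S untreated replicate 2 the unblocked FDR was 0.0469.

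Fer-1 pre-treatment left NUAK1 near the RSL3 level. The Fer-1 + RSL3 libraries held 88.1, 73.0 and 79.3 CPM in MM1R and 68.7, 54.5 and 56.2 CPM in MM1S cells, and overlapped with RSL3 in both lines. The averaged log2 difference from RSL3 alone was -0.0014 (SE 0.11, FDR = 0.998), with 3 passages higher and 3 lower. Against untreated cells NUAK1 was lower by -0.68 in MM1S cells (SE 0.16, FDR = 0.0209), a call that was lost without MM1S untreated replicate 1, MM1S Fer-1 + RSL3 replicate 2 or MM1S Fer-1 + RSL3 replicate 3 (FDR up to 0.116). In MM1R cells it was -0.49 (SE 0.16, FDR = 0.0636), or -0.49 with the block (FDR = 0.0158), and the unblocked FDR was 0.048 without MM1S RSL3 replicate 1 and 0.0313 without MM1S untreated replicate 1. Without the doubted MM1R library these became -0.43 (FDR = 0.203) and, with the block, -0.36 (FDR = 0.105). Over libraries, MAF and NUAK1 had a Pearson correlation of log2 CPM of 0.957 in MM1S cells (9 libraries). In MM1R cells it was 0.689 (8 libraries, without the doubted one). There MAF ran closer to CCND1 (0.720) and ITGB7 (0.709), and CCND3 stood at 0.669. In MM1S cells these genes had 0.594, 0.182 and 0.462. For MAF and NSD2 the values were 0.297 in MM1R and 0.239 in MM1S, and for MAF and CCND2 -0.00059 and -0.110. All are given as a description, since the libraries of a line share treatments and passages.

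**Figure D2:**
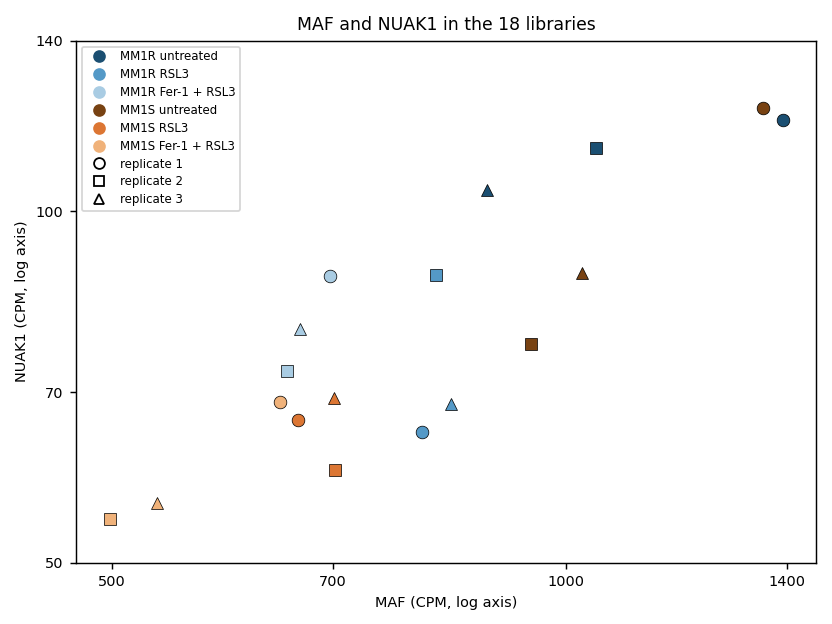
NUAK1 (vertical axis) against MAF (horizontal axis), both in CPM on log axes, for the 18 libraries, coloured by group and with the marker showing the replicate. The untreated libraries lie to the right of the treated libraries of the same line, and MM1S Fer-1 + RSL3 replicate 2 is lowest in both, at 498 CPM of MAF and 54.5 CPM of NUAK1.

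ITGB7 (chromosome 12, 53585107 to 53601066) was not called in any comparison. In MM1R cells the libraries held 6649, 6092 and 5386 CPM untreated, 6238, 5620 and 5314 CPM with RSL3, and 5823, 5239 and 4679 CPM after Fer-1 + RSL3. In MM1S cells they held 5629, 6614 and 5621 CPM, then 5812, 6045 and 5739 CPM, then 4706, 6250 and 5040 CPM. The groups overlapped throughout. RSL3 against untreated gave a log2 fold change of -0.050 averaged over both lines (SE 0.09, FDR = 0.768). Fer-1 + RSL3 was below untreated in 6 of 6 passages, as 16% of tested genes were, by -0.20 in MM1R (SE 0.13, FDR = 0.345) and -0.16 in MM1S cells (SE 0.13, FDR = 0.572). ZNF740 overlaps ITGB7 on the opposite strand. Other annotated genes also overlap CCND1, CCND2, CCND3, NUAK1 and NSD2, and whether counting used the strand is not given in the sources used here, so reads of such partners cannot be told apart.

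CCND2 (chromosome 12, 4378937 to 4414519) made up most of the D-type cyclin transcripts and was spread widely among libraries. In MM1R cells, CCND2 stood at 589, 679 and 787 CPM untreated, at 855, 747 and 1160 CPM with RSL3, and at 571, 629 and 523 CPM after Fer-1 + RSL3. In MM1S cells, it stood at 684, 1067 and 1318 CPM, then 1671, 1056 and 1019 CPM, then 665, 952 and 921 CPM. The 3 RSL3 libraries of each line lay above all Fer-1 + RSL3 libraries, but overlapped with the untreated ones. Of all tested genes, 6.44% in MM1R and 4.17% in MM1S cells were lower with Fer-1 + RSL3 than with RSL3 without overlap. RSL3 against untreated gave 0.36 on the log2 scale (SE 0.17, FDR = 0.163). It was higher in 4 of 6 passages, from -0.37 at passage 23 to 1.29 at passage 16, and without MM1S RSL3 replicate 1 the average was 0.23 (FDR = 0.396). With Fer-1, CCND2 was lower than with RSL3 alone in 6 of 6 passages, as 6.56% of tested genes were, by -0.62 averaged over both lines (SE 0.17, FDR = 0.14). Without the filter on low counts this value was -0.62 (FDR = 3.45e-06), where 2.05% of all genes were called. In that fit CCND2 also passed the test for RSL3 against untreated, at 0.34 (FDR = 0.0229), where 9.35% were. CCND2 held 9573 to 26252 counts per library, so its own counts were the same in both fits. The estimates barely moved, and what lowered the FDR was not tested. With the filter and without the doubted MM1R library, the change against RSL3 alone was -0.66 (FDR = 0.223). Between untreated lines, CCND2 was lower in MM1R cells by -0.58 (SE 0.24, FDR = 0.138), and by -0.80 (FDR = 0.0345) without MM1S untreated replicate 1. In MM1S cells the RSL3 value of CCND2 was 0.29 (FDR = 0.552), and 0.021 without MM1S RSL3 replicate 1 (FDR = 0.985).

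CCND3 (chromosome 6, 41902672 to 42018095) fell with RSL3. Its levels in MM1R cells were 64.2, 71.8 and 74.8 CPM untreated and 39.6, 57.0 and 48.9 CPM with RSL3, and in MM1S cells 63.0, 81.2 and 72.7 CPM untreated and 39.4, 58.7 and 55.1 CPM with RSL3. Neither line showed overlap, and 12.3% of tested genes in each line were lower without overlap. The averaged log2 fold change was -0.52 (SE 0.13, FDR = 0.0158), and the level fell by 30.1%. It passed the test in all 18 fits that left out 1 library. Single lines did not pass it, at -0.53 in MM1R (FDR = 0.135) and -0.50 in MM1S cells (FDR = 0.154), whereas with the passage as a block both did, at -0.55 (FDR = 0.00714) and -0.52 (FDR = 0.0107). With Fer-1 before RSL3, CCND3 held 46.7, 56.7 and 41.1 CPM in MM1R and 39.7, 64.3 and 53.1 CPM in MM1S cells. These values overlapped with RSL3 alone, with an averaged log2 difference of 0.013 (SE 0.13, FDR = 0.983). Against untreated cells they were lower in 6 of 6 passages, as 16% of tested genes were, by -0.54 in MM1R (FDR = 0.0821) and -0.47 in MM1S cells (FDR = 0.179). With the block the changes were -0.55 (FDR = 0.00334) and -0.49 (FDR = 0.00994). The unblocked MM1R value passed without MM1S RSL3 replicate 1 (FDR = 0.0377). The blocked MM1R value without the doubted library was -0.60 (FDR = 0.0113).

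CCND1 (chromosome 11, 69455924 to 69469242) was low, at 89 to 318 counts per library. Untreated and RSL3-treated cells held 12.4, 12.4 and 8.52 CPM and 11.3, 11.1 and 9.51 CPM in MM1R, and 11.6, 14.2 and 15.96 CPM and 13.5, 11.03 and 13.7 CPM in MM1S cells. RSL3 against untreated gave -0.092 averaged over both lines (SE 0.13, FDR = 0.699). The Fer-1 + RSL3 libraries held 7.74, 6.19 and 4.86 CPM in MM1R and 9.80, 9.51 and 9.17 CPM in MM1S cells. All of them lay below every other library of their line. Of all tested genes, 14.1% in MM1R and 13.6% in MM1S cells were lower than untreated without overlap, and 6.44% and 4.17% lower than with RSL3. Against untreated, CCND1 changed in MM1R cells by -0.82 (SE 0.19, FDR = 0.0131), so that its level fell by 43.5%. In MM1S cells the value was -0.55 (SE 0.19, FDR = 0.105), or -0.54 with the block (FDR = 0.0195). The MM1R call was lost without MM1R untreated replicate 2 (FDR = 0.0614) or MM1R Fer-1 + RSL3 replicate 3 (FDR = 0.0621), and it held without the doubted library (-0.82, FDR = 0.0466). Against RSL3 alone, CCND1 was lower in 6 of 6 passages, as 6.56% of tested genes were, by -0.60 averaged over both lines (SE 0.13, FDR = 0.0732). With the passage as a block this passed the test at -0.60 (FDR = 0.0167), also without the doubted library, at -0.57 (FDR = 0.0389).

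The makeup of the D-type cyclin pool followed these values. Per length of the longest transcript, CCND2 gave 74.3% to 92.5% of the summed CCND1, CCND2 and CCND3 level in the 18 libraries, CCND3 6.24% to 23.2%, and CCND1 1.17% to 2.53%. The share of CCND2 was 75.6% ± 1.71 in untreated MM1R cells, 85.1% ± 4.07 with RSL3 and 79.6% ± 1.07 after Fer-1 + RSL3 (SD, n = 3). In MM1S cells it was 81.0% ± 3.75, 87.5% ± 4.35 and 83.7% ± 0.985. In MM1R cells every RSL3 library held a larger share of CCND2 than every untreated library, with either gene length. In MM1S cells this was so only per longest transcript, since with the summed length of all exons RSL3 replicate 3 had 91.11% and untreated replicate 3 had 91.17%. The shares depend on the length used: with the summed exons, CCND2 gave 84.3% to 95.6% and CCND3 3.12% to 12.7%, and untreated MM1R cells had 85.4% ± 1.40 of CCND2 and 12.2% ± 0.675 of CCND3 (SD, n = 3). The summed level was 132 ± 16.2, 157 ± 30.4 and 105 ± 11.2 CPM per kb in MM1R, and 183 ± 49.6, 207 ± 49.4 and 148 ± 27.8 CPM per kb in MM1S cells, in the same order of treatments.

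**Figure D3:**
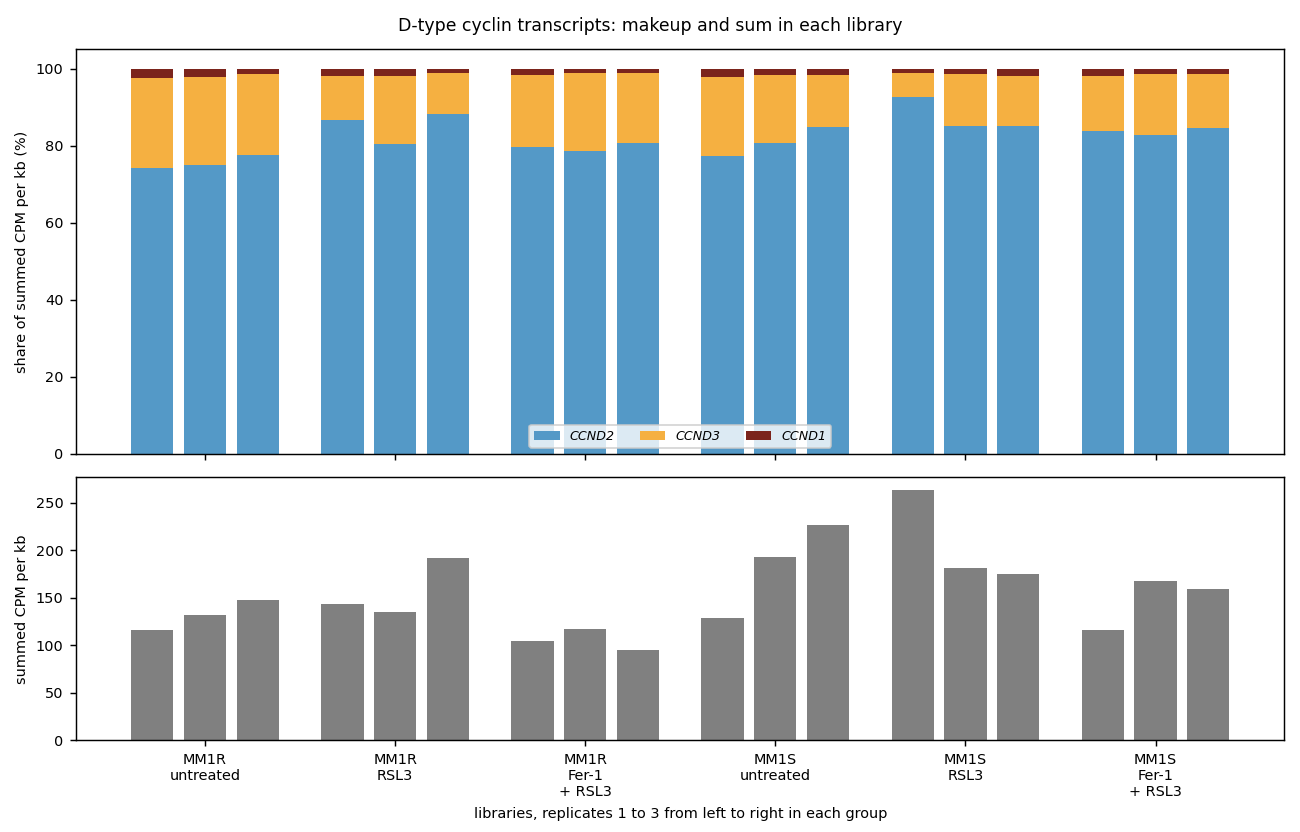
Upper panel, share of CCND2, CCND3 and CCND1 in their summed CPM per kb of the longest transcript (vertical axis, %) in each library. Lower panel, that sum in CPM per kb. Bars are libraries, grouped by line and treatment, and CCND2 takes 74.3% to 92.5% of every upper bar.

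The 2 genes of the chromosome 4 translocation, FGFR3 (1795020 to 1810599) and NSD2 (1873120 to 1983934), lie 62521 bases apart and stood at very different levels. FGFR3 had 2 to 8 counts in MM1R and 5 to 11 counts in MM1S libraries, or 0.108 to 0.570 CPM, and was removed by the filter on low counts. In the fit without that filter no comparison of FGFR3 passed the test. Such counts cannot show a change of moderate size. NSD2 stood at 225, 238 and 246 CPM untreated, 167, 204 and 225 CPM with RSL3 and 183, 246 and 242 CPM after Fer-1 + RSL3 in MM1R cells. In MM1S cells it stood at 253, 322 and 339 CPM, then 167, 257 and 302 CPM, then 213, 261 and 305 CPM. NSD2 was lower with RSL3 in 6 of 6 passages, as 14.8% of tested genes were. In MM1R cells the highest RSL3 library lay just below the lowest untreated one, as for 12.3% of tested genes, and in MM1S cells the groups overlapped. The averaged log2 fold change was -0.29 (SE 0.14, FDR = 0.163), and with the passage as a block it passed the test, at -0.31 (FDR = 0.00375). Without MM1S RSL3 replicate 1 the unblocked value was -0.18 (FDR = 0.35). With Fer-1, NSD2 was above RSL3 alone in 6 of 6 passages, as 8.05% of tested genes were, by 0.14 (SE 0.14, FDR = 0.74). All 3 untreated MM1R libraries lay below the 3 untreated MM1S libraries, by -0.37 (SE 0.19, FDR = 0.264), as 16.7% of tested genes did.

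**Figure D4:**
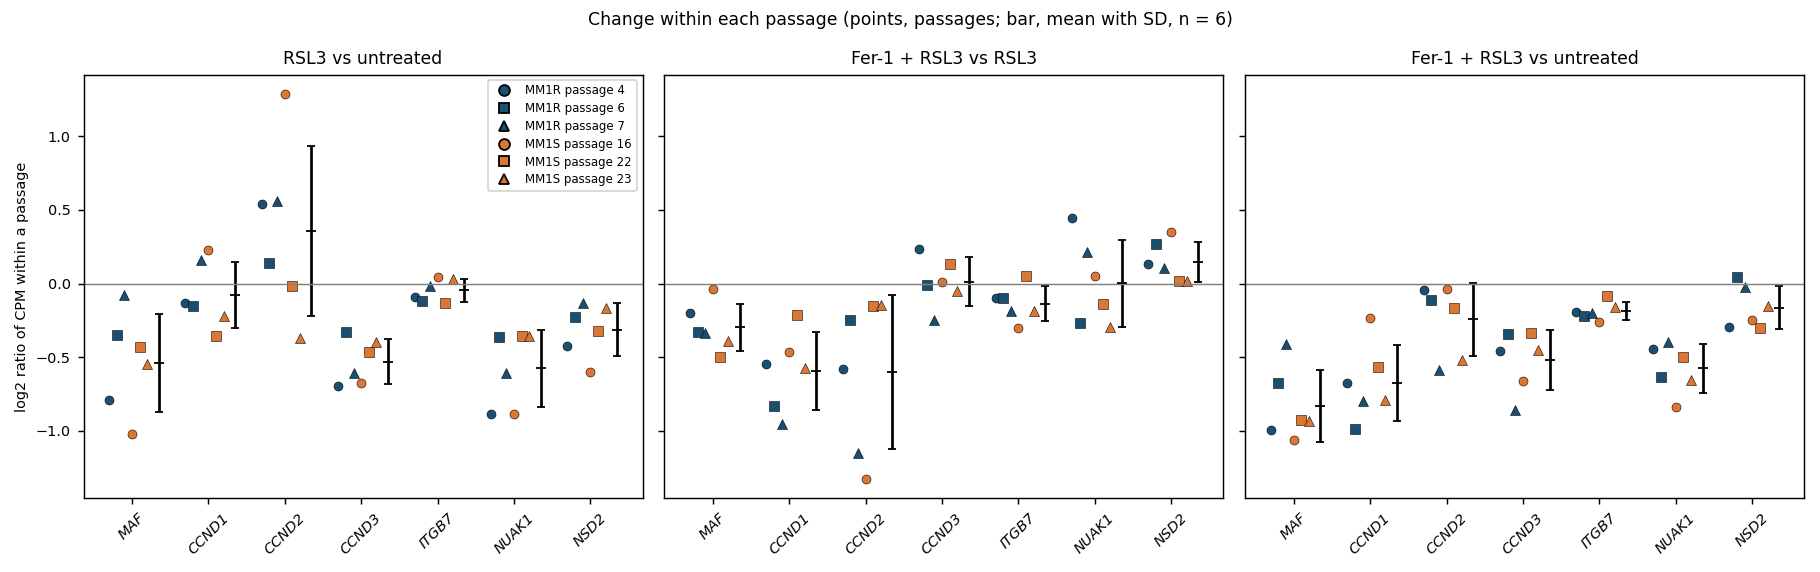
Log2 ratio of CPM within each of the 6 passages (vertical axis) for the 7 tested genes (horizontal axis) in 3 comparisons. Points are passages, blue for MM1R and orange for MM1S cells, and the bar is the mean with its SD (n = 6). MAF, CCND3, NUAK1 and NSD2 are below 0 in 6 of 6 passages with RSL3, as 14.8% of all tested genes are. CCND2 reaches 1.29 at passage 16.

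Counted over the 7 tested members, 3 passed the test for RSL3 against untreated averaged over both lines (MAF, CCND3 and NUAK1), 1 in MM1R (NUAK1) and 1 in MM1S cells (MAF). All were lower. Over all tested genes, 15.5%, 3.36% and 3.67% were called in these comparisons, and 6.81%, 1.36% and 1.17% were called as lower. The median log2 fold change of the 7 members in the average was -0.29, and that of all tested genes -0.00013. With the passage as a block, 4 members were called in the average, 3 in MM1R and 4 in MM1S cells, where 30.4%, 13.1% and 13.3% of all genes were. DESeq2 called 3, 1 and 2, where it called 19.1%, 6.48% and 7.11% of all genes. Without MM1S RSL3 replicate 1 the edgeR counts were 3, 1 and 0 (11.9%, 8.11% and 1.07% of all genes), and without the doubted library 3, 0 and 1 (14.2%, 3.03% and 3.19%).

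For Fer-1 + RSL3 against untreated, 2 of 7 members passed the test in MM1R (MAF and CCND1) and 2 in MM1S cells (MAF and NUAK1), all lower, against 9.22% and 4.61% of all genes called and 3.66% and 2.02% called as lower. With the block, 4 members were called in each line, where 22.2% and 14.7% of all genes were. Without the doubted library both counts were again 2 (4.65% and 4.29% of all genes), and with the block 3 in MM1R cells (12.3%). Against RSL3 alone, edgeR called 0 of 7 members in MM1R cells, in MM1S cells and averaged over both lines, where 0%, 0% and 0.119% of all genes were called. At an unadjusted p under 0.05 the counts were 2, 2 and 3 of 7, against 6.17%, 5.75% and 12.8% of all genes, and DESeq2 called 0, 0 and 2 members (CCND1 and CCND2 in the average), with 0.189%, 0.049% and 1.52% of all genes called. The block called 1 in the average (CCND1), where 2.37% of all genes were called. Untreated MM1R and MM1S cells differed in 0 of 7 members by edgeR (10.5% of all genes called), in 1 at an unadjusted p under 0.05 (24.8% of all genes) and in 0 by DESeq2 (13.4%), and the RSL3-treated lines in 0 members (9.17%), 0 (23.4%) and 0 (12.1%). The difference between the lines in the response to RSL3 gave 0 calls by edgeR among the members and among all genes, 0 members at an unadjusted p under 0.05 (1.55% of all genes) and 0 by DESeq2. No called change of a member exceeded 1 on the log2 scale. Of all genes, 1.2%, 1.61% and 3.24% did for RSL3 (MM1R, MM1S, average), 2.16% and 1.37% for Fer-1 + RSL3 against untreated, 0.056% against RSL3 in the average, and 4.64% and 4.75% between untreated and between RSL3-treated lines.

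**Figure D5:**
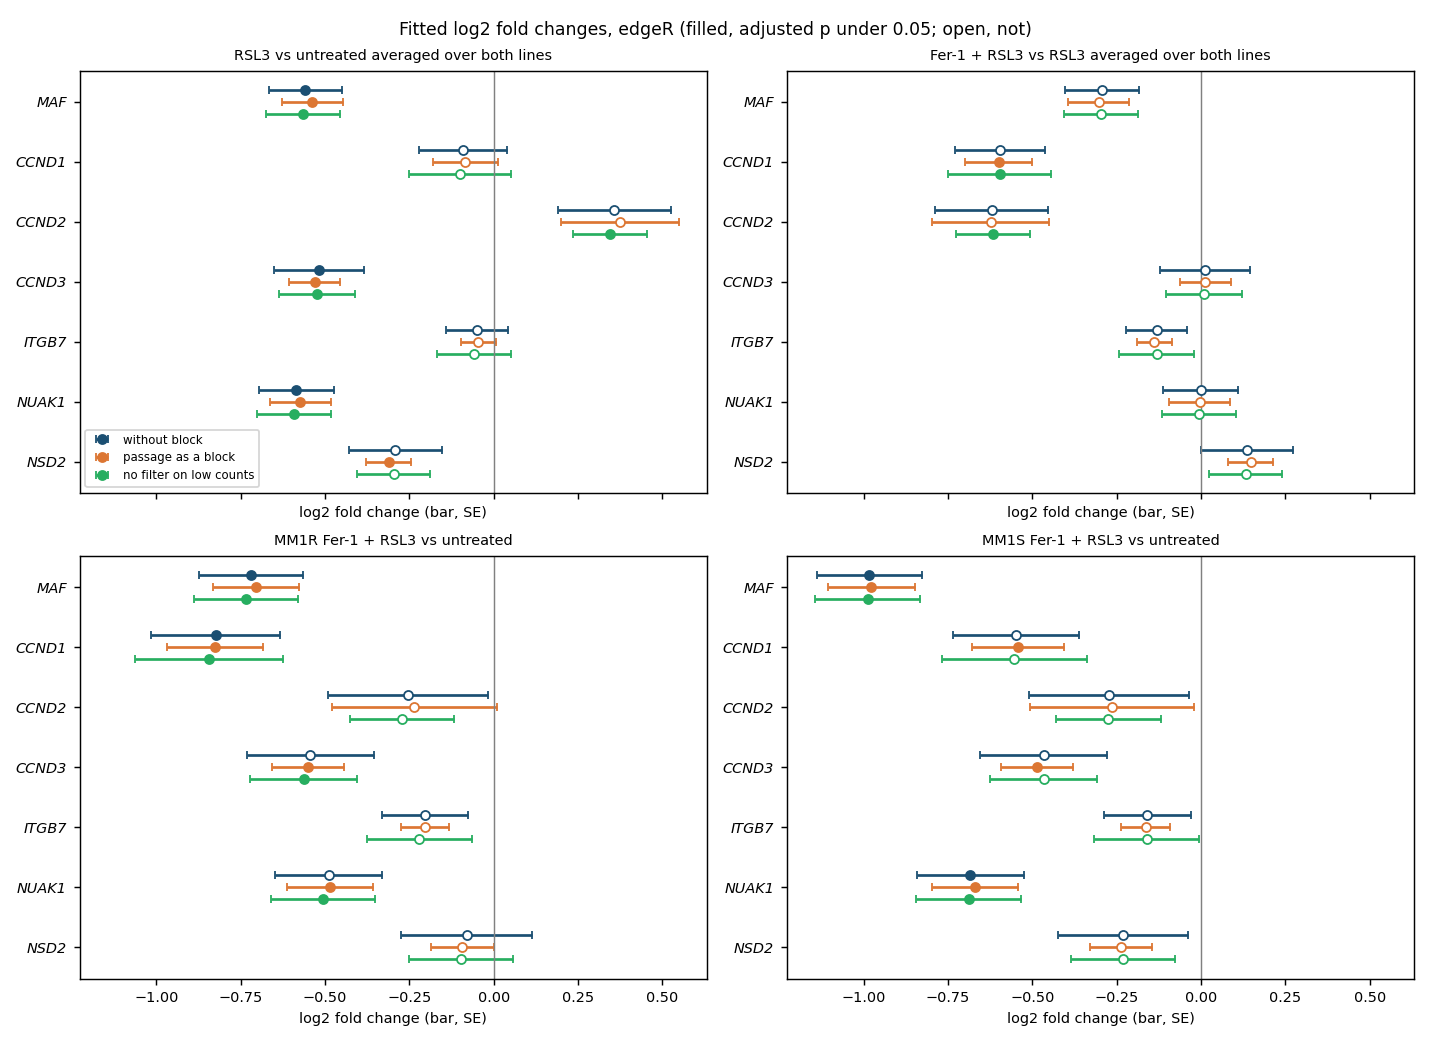
Fitted log2 fold change (horizontal axes, with SE bars) of the 7 tested genes (vertical axes) in 4 comparisons, by edgeR without a block (blue), with the passage as a block (orange) and without the filter on low counts (green). Filled points have an adjusted p under 0.05 and open points do not. MAF is filled in both panels against untreated cells and in the average for RSL3, and CCND2 is filled only in the fit without the filter.

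Other genes linked to MAF moved in both directions. Of 11 other genes linked to the MAF class of myeloma, 9 were tested. With RSL3 averaged over both lines, RND3 rose and CCR1 and DEPTOR fell, where 15.5% of all genes were called. RND3 rose by 3.08 (SE 0.44, FDR = 0.000331), from 7.69 to 69.1 CPM in MM1R and from 7.12 to 56.9 CPM in MM1S cells (means, n = 3). CCR1, a chemokine receptor, and DEPTOR, an inhibitor of mTOR, were named after their values were seen. They fell by -0.54 (SE 0.15, FDR = 0.0209) and -0.29 (SE 0.09, FDR = 0.0337), which held in 16 and 11 of 18 fits that left out 1 library. The median of the 9 genes was -0.093. RND3 reached 124 CPM in MM1S RSL3 replicate 1 and 26.3 and 20.9 CPM in the other two MM1S RSL3 libraries. CX3CR1, another chemokine receptor, was higher in untreated MM1R than MM1S cells, at 49.0 ± 12.6 against 3.44 ± 4.43 CPM (SD, n = 3, FDR = 0.00245). The MM1S libraries held 8.55, 0.627 and 1.15 CPM, and the log2 difference of 3.83 became 5.76 without MM1S untreated replicate 1. SMARCA1, a chromatin remodeller, had 7 to 25 counts in untreated MM1R libraries and 2 to 3 in MM1S libraries, at least 4.98-fold higher against a floor of 3 counts per library.

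Of 9 other genes at translocation sites, 8 were tested. With RSL3 averaged over both lines, LETM1 and TACC3, neighbours of FGFR3 and NSD2 on chromosome 4, fell by -0.45 (SE 0.12, FDR = 0.0191) and -0.67 (SE 0.22, FDR = 0.0494). LETM1 did not pass without MM1R RSL3 replicate 1, and TACC3 passed in 4 of 18 fits that left out 1 library. LETM1 stood at 65.5 CPM and TACC3 at 52.0 CPM in MM1S RSL3 replicate 1, below all other libraries of either line. MYC, at 136 to 791 CPM, and IRF4, at 573 to 1218 CPM and also on the plasma cell list, did not pass the test (-0.29, FDR = 0.521, and -0.26, FDR = 0.272).

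The partners of the D-type cyclins moved in both directions. Of 18 kinases, inhibitors and RB pathway genes, 16 were tested. With RSL3 averaged over both lines 2 rose and 3 fell, where 15.5% of all genes were called. Their median was 0.033. CCNE1, the cyclin E that acts after D-type cyclins, fell by -0.77 (SE 0.15, FDR = 0.00229). CDK6, E2F3, RB1 and E2F1, named after their values were seen, gave 0.44 (FDR = 0.00823), 0.28 (FDR = 0.0476), -0.31 (FDR = 0.0209) and -0.29 (FDR = 0.0162), and E2F3 held in 3 of 18 fits that left out 1 library. CDKN2A, which encodes the CDK4 and CDK6 inhibitor p16 and the p53 activator ARF, had 54.2 to 99.9 CPM in untreated MM1R cells and 0, 0.104 and 0.251 CPM in MM1S cells. CDKN2B, another inhibitor of this family, was at least 21.4-fold higher in untreated MM1R cells against a floor of 3 counts per library. CDKN2C was listed with 0 counts in every library.

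Of 7 other integrin subunits, 5 were tested, and none was called with RSL3 by edgeR in MM1R cells, MM1S cells or the average. Of all genes, 3.36%, 3.67% and 15.5% were called there. ITGA4, the alpha chain that pairs with ITGB7 or ITGB1, was lower in untreated MM1R than MM1S cells, by -1.10 (SE 0.21, FDR = 0.00303), and ITGB1 by -0.56 (SE 0.12, FDR = 0.0068). ITGAL, the alpha chain of LFA-1, was higher in MM1R cells under RSL3 by 0.65 (SE 0.17, FDR = 0.0192), in 15 of 18 fits that left out 1 library. All 5 genes of the NUAK and LKB1 list were tested. STK11, which encodes LKB1, fell with RSL3 by -0.59 averaged over both lines (SE 0.09, FDR = 0.000728) and NUAK2 rose by 0.51 (SE 0.10, FDR = 0.00341), opposite to NUAK1. The rise of NUAK2 passed the test in MM1R cells, at 0.79 (SE 0.14, FDR = 0.00798), but not in MM1S cells. There the means were 15.6 CPM untreated and 18.2 CPM with RSL3, and passage 23 went from 16.2 to 15.6 CPM. PPP1R12A, a myosin phosphatase subunit that NUAK1 phosphorylates, was lower in untreated MM1R cells by -0.52 (SE 0.13, FDR = 0.0199), in 14 of 18 such fits. Of 8 FGF receptor and NSD family genes, all tested, FGFR1 rose by 0.72 (SE 0.20, FDR = 0.0261) and NSD1 fell by -0.35 (SE 0.10, FDR = 0.0236) with RSL3, in 13 and 14 of 18 fits that left out 1 library. FGFR4 was higher in untreated MM1R cells by 1.15 (SE 0.30, FDR = 0.0231), in 15 of 18 such fits.

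The genes whose log2 CPM ran most like a member within both lines were ranked by the smaller of the 2 within-line Pearson correlations (8 MM1R and 9 MM1S libraries), as a description. For MAF they were SLC35E2B (0.945 and 0.935), which has a near-identical neighbouring copy, RHBDF2 (0.933 and 0.942) and MYLIP (0.925 and 0.934). For CCND2 they were SRSF3 (0.888 and 0.884), SLC20A1 (0.868 and 0.887) and PTP4A1 (0.860 and 0.907). For ITGB7 they were SEMA3A (0.917 and 0.898), MOXD1 (0.945 and 0.892) and GNLY (0.880 and 0.971), all at a median of 8.62 CPM or less.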

How the data were processed

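RNA of 18 libraries of the MM1R and MM1S lines was sequenced. Per the submitters' processing notes, the authors checked reads with FastQC 0.11.5 and aligned them to hg19 with STAR 2.7.3a. The authors deposited raw read counts for 43735 genes and, for 29553 genes, normalized signal values, which are counts divided by a size factor of the library (0.834 to 1.08). DESeq2 stands in the same notes. The counting tool, annotation and strand setting are not given in the sources used here.

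Raw counts were filtered with filterByExpr (minimum count 10), scaled by TMM and fitted in 1 edgeR model of 6 group means (12 residual degrees of freedom). Groups were compared with the quasi-likelihood test and Benjamini-Hochberg adjustment over all 14281 tested genes, and a gene with an FDR under 0.05 was called. Ratios and correlations used log2 CPM with a prior count of 2. Fits were run with edgeR 4.0.16, DESeq2 1.42.0 and limma 3.58.1 under R 4.3.3. Positions came from an annotation of hg19 and promoters from RefSeq. Members and lists were chosen with earlier results of these data known. The rule for naming genes covered the members, up to 3 called genes of each list with the smallest FDR, and 3 genes most like MAF, CCND2 and ITGB7. List genes named outside this rule are CCR1, DEPTOR, CDK6, E2F3, RB1, E2F1, MYC, IRF4 and CDKN2C. Results of 1 list gene are not reported here.

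Passage numbers in the labels pair libraries within a line. Deviations from group means of libraries of the same passage correlated by a median of 0.250 in MM1R (0.0338 to 0.516) and 0.416 in MM1S cells (0.216 to 0.681). Libraries of a group differed by more than sampling noise (chi-square of 22.0 to 114 per degree of freedom). The steps were first tested on simulated data. Alternatives were DESeq2, RLE scaling, other filters, only the groups compared, the passage as a block, limma on log2 of the normalized values plus 1, a threshold of 1 on the log2 fold change, summed exon length, and leaving out each library. The block without the doubted MM1R library was added after the data were seen.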

Additional observations from a re-analysis of the deposited data

How the results depend on the processing

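Counts of called members against the values in the report changed as follows. With the passage as a replicate block, 3 members were called for MM1R RSL3 against untreated, 4 for MM1S, 4 for Fer-1 + RSL3 against untreated in either line and 1 for Fer-1 + RSL3 against RSL3 in the average (also 1 without the doubted MM1R library, chosen after seeing the data). Of 63 member results the block ended no call and added 11. Over all genes the block also raised the share called. For RSL3 against untreated it rose from 3.36% to 13.1% in MM1R, 3.67% to 13.3% in MM1S and 15.5% to 30.4% in the average. For Fer-1 + RSL3 against untreated it rose from 9.22% to 22.2% in MM1R and 4.61% to 14.7% in MM1S cells. Against RSL3 in the average it rose from 0.119% to 2.37%, or 0.662% without the doubted library. Without the filter on low counts, 2 were called for MM1R and 3 for MM1S RSL3 against untreated, 2, 1 and 2 for Fer-1 + RSL3 against RSL3 (MM1R, MM1S, average), 4 for MM1R Fer-1 + RSL3 against untreated and 1 between untreated lines, where 3.64%, 4.36%, 0.973%, 1.11%, 2.05%, 5.54% and 6.65% of all genes were called. DESeq2 called 2 for MM1S RSL3, 2 for the averaged Fer-1 + RSL3 against RSL3 and 4 for MM1R Fer-1 + RSL3 against untreated (7.11%, 1.52% and 12.9% of all genes). With only the groups compared the counts were 0 for MM1S RSL3, 4 for MM1R and 1 for MM1S Fer-1 + RSL3 against untreated (0.0228%, 9.86% and 7.13% of all genes). With a log2 fold change over 1 also required, all counts were 0. Leaving out 1 library gave 0 to 1 for MM1R RSL3, 0 to 2 for MM1S RSL3, 1 to 4 and 1 to 2 for Fer-1 + RSL3 against untreated in MM1R and MM1S, and 0 to 1 between untreated lines, with 0.774% to 8.11%, 0.575% to 6.43%, 4.32% to 13.6%, 2.01% to 8.49% and 4.51% to 13.7% of all genes called. The cause of these changes was not tested.

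Values near 0 changed sign. For MAF between untreated lines it was -0.00086 with limma on the normalized values and -0.20 to 0.17 when libraries were left out. With the block and without the doubted library, CCND3 gave -0.013 and NUAK1 0.064 for Fer-1 + RSL3 against RSL3 in the average. Leaving out 1 library gave these log2 ranges for RSL3 against untreated: CCND1 in MM1R -0.22 to 0.026, ITGB7 in MM1S -0.063 to 0.064. For Fer-1 + RSL3 against RSL3 they were, for CCND3, -0.14 to 0.12 in MM1R, -0.14 to 0.20 in MM1S and -0.075 to 0.096 in the average, for NUAK1 -0.056 to 0.074 in the average, and for NSD2 -0.11 to 0.29 in MM1S. NSD2 in MM1R Fer-1 + RSL3 against untreated gave -0.16 to 0.045. Between the lines, CCND3 gave -0.13 to 0.063 untreated and -0.22 to 0.053 with RSL3, and ITGB7 -0.052 to 0.12 and -0.10 to 0.037. The difference between the lines in the RSL3 response gave -0.094 to 0.18 for CCND1, -0.091 to 0.41 for CCND2, -0.19 to 0.095 for CCND3, -0.14 to 0.016 for ITGB7, -0.26 to 0.086 for NUAK1 and -0.13 to 0.27 for NSD2. Depth limits FGFR3, with at most 11 counts.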
